A study of Homo sapiens with 8 samples.

Results

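The members described here are the factors of the NFE2 family, their BACH relatives, the small MAF proteins that pair with both, and KEAP1. They were chosen as every probe set whose platform annotation gives exactly 1 gene symbol and that symbol is NFE2, NFE2L1, NFE2L2, NFE2L3, BACH1, BACH2, MAFF, MAFG, MAFK or KEAP1. Of these 10 genes 9 were measured, by 19 probe sets, among 19775 genes in all. MAFK was not analysed here. The arrays came from K562, an established human leukaemia line with erythroid features, in which all cells stably carried p42-C/EBPa-ER. That protein joins the full-length form of C/EBPα, a factor of granulocyte differentiation, to the oestrogen receptor (ER), and estradiol moves it into the nucleus. The cells, kept in charcoal-stripped serum without phenol red, received 1 µM beta-estradiol (4 arrays) or ethanol vehicle (4 arrays) for 6 h. All 8 cultures carried the fusion, so an effect of estradiol itself cannot be told apart from that of the fusion. Whether the line is 1 clone is not stated.

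NFE2, the transcription factor first found at globin gene enhancers, and its relatives NFE2L1, NFE2L2 and NFE2L3 activate genes only as dimers with a small MAF protein. NFE2 acts mainly in red cell precursors and megakaryocytes. NFE2L2, better known as NRF2, switches on antioxidant and detoxifying enzymes, and KEAP1 hands it to a ubiquitin ligase for destruction until oxidants or electrophiles disable KEAP1. BACH1 and BACH2 bind the same kind of site with the same MAF partners as repressors, and haem makes BACH1 let go. MAFF, MAFG and MAFK have no activation domain of their own, so the partner decides whether a site is activated or repressed.

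After estradiol the RNA of NFE2L2 was 2.04-fold higher, that of NFE2 1.82-fold, that of MAFF 1.69-fold and that of MAFG 1.17-fold. BACH2 was 1.28-fold lower. BACH1, KEAP1 and NFE2L3 did not pass the test, and NFE2L1 passed it by a narrow margin. Of the 9 measured members 5 rose and 1 fell (limma, Benjamini-Hochberg adjusted p under 0.05 over all genes). That is 66.7% of the members, against 17.9% of all genes called in either direction, 8.29% called higher and 9.6% called lower. All 9 members lay above the median level, where calls were more frequent. In the fit of those genes alone 7 of the 9 members and 4276 of 9887 genes were called, and the difference was not tested. Called changes of 1.5-fold or more numbered 3 among the members and made up 2.91% of all genes. The median log2 change of the members was 0.15, with −0.03 for all genes. With the replicate number as a block, with probe sets averaged per gene or at an adjusted p under 0.01, 4 members were called in place of 6.

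**Figure D1:**
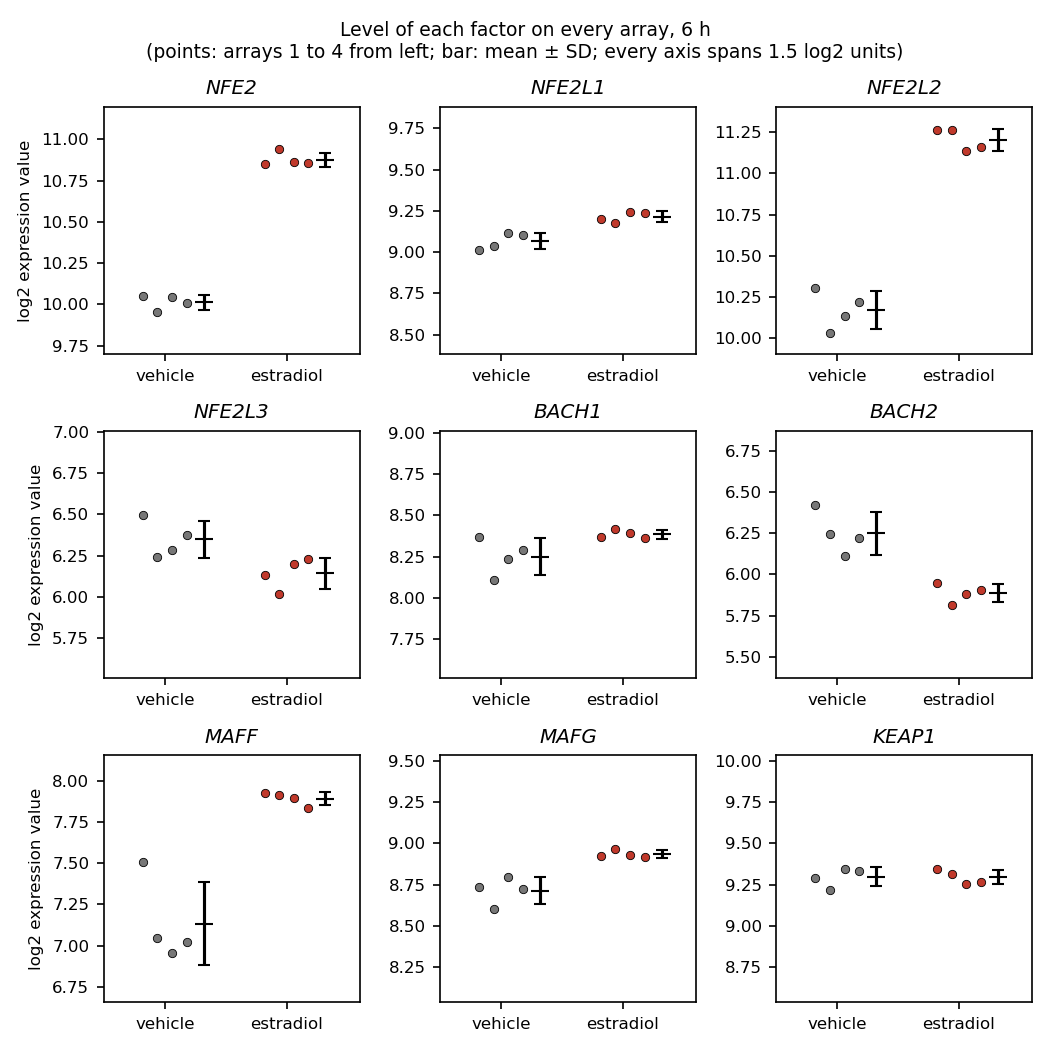
Log2 expression value of each of the 9 measured genes on the 4 vehicle arrays (grey) and the 4 estradiol arrays (red), with the mean ± SD beside them; every axis spans 1.5 log2 units but starts at its own level, since levels of different probe sets cannot be set against each other. NFE2 and NFE2L2 show gaps of 0.80 and 0.83 between the groups, KEAP1 and BACH1 overlap, and 1 vehicle array of MAFF lies above the others at 7.50.

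Promoter sequence is shown for the 3 members with the largest changes for which the RefSeq promoter table (GRCh38.p14) holds a window. Each line gives the 250 bases before an annotated start site on the strand of the gene, from the most upstream window listed for that gene. Capitals mark matches to the motifs described next. The windows are those of NFE2L2 at chr2:177264728-177264977 on the minus strand, MAFF at chr22:38201744-38201993 on the plus strand and BACH2 at chr6:90296844-90297093 on the minus strand.
NFE2L2: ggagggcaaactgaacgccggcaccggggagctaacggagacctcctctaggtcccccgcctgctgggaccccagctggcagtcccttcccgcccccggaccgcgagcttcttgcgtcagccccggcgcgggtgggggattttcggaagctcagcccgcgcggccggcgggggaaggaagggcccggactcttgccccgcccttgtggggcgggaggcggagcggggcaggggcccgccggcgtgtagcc
MAFF: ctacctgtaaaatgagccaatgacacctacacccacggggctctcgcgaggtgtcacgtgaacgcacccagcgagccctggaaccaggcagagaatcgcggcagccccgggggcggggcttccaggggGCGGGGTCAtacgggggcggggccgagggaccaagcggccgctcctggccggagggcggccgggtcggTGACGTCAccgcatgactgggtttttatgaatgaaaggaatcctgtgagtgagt
BACH2: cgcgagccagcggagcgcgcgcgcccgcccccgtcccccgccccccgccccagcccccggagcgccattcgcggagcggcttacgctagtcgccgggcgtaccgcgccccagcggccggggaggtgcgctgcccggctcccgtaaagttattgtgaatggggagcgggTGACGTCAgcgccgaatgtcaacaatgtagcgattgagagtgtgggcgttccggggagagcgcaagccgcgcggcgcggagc

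The table matched 8 members with 14 windows and held none for NFE2 or MAFK, so the counts below do not cover the NFE2 promoter. Searched on both strands were TTGCNNAA for C/EBP factors, TGACNNNGC for the antioxidant response element, TGANTCA for the core shared by AP-1 and NF-E2 sites, and AGATAA for GATA factors. TGACGTCA, the cAMP response element bound by CREB and ATF factors, was added after the sequences had been read. The C/EBP motif stood in 1 of the 14 windows, that of NFE2L3, and in 9.05% of the 35116 windows of the table. The antioxidant response element was matched in 2 member windows, 1 of MAFF and 1 of KEAP1, and in 10.9% of all windows. AP-1 and GATA motifs had 1 member window each, both of BACH1, against 6.57% and 9.17% of all windows. The cAMP response element was found in MAFF, 54 bases before the start site, and in BACH2, 82 bases before it, and in 1.65% of all windows. MAFF rose while BACH2 fell, so these letters are shared by members that moved in opposite directions. No matches overlapped each other. The printed NFE2L2 window held no match, which says only that these letters are not in it.

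NFE2 was measured by a single probe set (209930_s_at). The log2 values were 10.85, 10.94, 10.86 and 10.86 with estradiol and 10.05, 9.95, 10.04 and 10.01 with vehicle. The groups were tight and lay 0.80 apart at their nearest arrays, with ranges of 0.09 and 0.10 within them. Means were 10.88 ± 0.04 and 10.01 ± 0.05 (SD, n = 4 each), a log2 change of 0.86 ± 0.04 (SE, limma adjusted p = 1.99e-06). NFE2 kept this call in each of 18 alternatives, between 0.83 and 0.89. The erythroid regulator GATA1 fell in the same cells by 0.89 ± 0.04 on the log2 scale, so these regulators of red cell genes changed in opposite directions.

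NFE2L2, the oxidative stress factor NRF2, had the largest change of the family where 1 probe set stood for a gene. Its brightest probe set (201146_at) read 11.26, 11.26, 11.14 and 11.16 with estradiol and 10.31, 10.03, 10.13 and 10.22 with vehicle. All estradiol arrays lay above all vehicle arrays, with a gap of 0.83. Means were 11.20 ± 0.07 and 10.17 ± 0.12 (SD, n = 4), a log2 change of 1.03 ± 0.07 (SE, limma adjusted p = 8.29e-06). Another probe set (1567013_at) gave 7.55, 7.61, 7.41 and 7.58 against 6.63, 6.54, 6.63 and 6.64, a change of 0.93 ± 0.06. The remaining NFE2L2 probe set (1567015_at) lay between 4.36 and 4.61 on all 8 arrays, below the array medians of 4.97 to 5.08, and showed −0.04 ± 0.07. With the mean of its 3 probe sets the change of NFE2L2 was 0.64, still called but smaller than the 0.86 of NFE2.

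NFE2L1, the factor that renews proteasome genes after proteasome inhibition, moved little. Its log2 values were 9.20, 9.18, 9.24 and 9.24 with estradiol and 9.01, 9.04, 9.11 and 9.10 with vehicle. The groups did not overlap, but the gap was only 0.06. The change of 0.15 ± 0.04 (SE, limma adjusted p = 0.0416) lost its call in 14 of 18 alternatives, among them each of the 8 fits without 1 array (adjusted p from 0.0568 to 0.118). The other 2 NFE2L1 probe sets gave 0.03 ± 0.04 and 0.09 ± 0.06, and the mean of all 3 gave 0.092.

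NFE2L3, a relative anchored in the endoplasmic reticulum like NFE2L1, read 6.13, 6.02, 6.20 and 6.23 with estradiol and 6.49, 6.24, 6.28 and 6.38 with vehicle. The groups were separated by 0.01, and the difference of −0.20 ± 0.07 (SE) did not pass (limma adjusted p = 0.0769). It passed without vehicle replicate 2, at −0.24 (adjusted p = 0.0494), with scaling to the 75th percentile and among genes above the median level. Its other probe set lay between 3.89 and 4.47, below the array medians, and gave −0.13 ± 0.12.

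The repressors BACH1 and BACH2 gave different readings. BACH2, a repressor needed for B cell maturation, was measured by 2 probe sets, both called lower. The brighter (227173_s_at) read 5.95, 5.82, 5.88 and 5.91 with estradiol and 6.42, 6.25, 6.11 and 6.22 with vehicle, a log2 change of −0.36 ± 0.07 (SE, limma adjusted p = 0.00530). On the dimmer (221234_s_at) the values were 4.92, 5.31, 5.40 and 5.09 against 6.09, 5.77, 5.85 and 5.96. All estradiol arrays were below all vehicle arrays on both, and the dimmer one fell by 0.74 on the log2 scale (SE 0.11, adjusted p = 0.00226 over all probe sets). Its estradiol values lay near the medians of those arrays (4.97 to 5.07), and background was not measured. With the mean of both the change was −0.55.

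BACH1, the haem-sensing repressor of HMOX1, read 8.37, 8.42, 8.39 and 8.36 with estradiol against 8.37, 8.10, 8.24 and 8.29 with vehicle. Vehicle replicate 1 lay within the estradiol range, so the groups overlapped. The difference of 0.13 ± 0.06 (SE) had an adjusted p of 0.173 in limma, from 0.0633 to 0.939 over the 18 alternatives. Its other 2 probe sets stood at 4.76 to 5.22 and differed by −0.06 ± 0.07 and −0.05 ± 0.09. The difference between the changes of BACH1 and BACH2 was not tested.

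Among the small MAF proteins MAFF, which is induced by stress and inflammatory signals in many cells, showed the larger change. Its log2 values (36711_at) were 7.93, 7.91, 7.89 and 7.83 with estradiol and 7.50, 7.04, 6.96 and 7.02 with vehicle. Vehicle replicate 1 stood about midway between the other vehicle arrays and the estradiol group. The change was 0.76 ± 0.11 (SE, limma adjusted p = 0.00129), and 0.88 without that array. The other MAFF probe set (205193_at) read 6.32 to 6.41 against 5.91 to 6.29, a difference of 0.25 ± 0.08 that did not pass over all probe sets (adjusted p = 0.0843). The mean of both probe sets rose by 0.51.

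MAFG, the small MAF that serves NFE2 in platelet formation together with MAFK, read 8.92, 8.97, 8.93 and 8.92 with estradiol and 8.73, 8.60, 8.79 and 8.73 with vehicle (204970_s_at). The estradiol arrays lay 0.12 above the nearest vehicle array. The change of 0.22 ± 0.05 (SE, limma adjusted p = 0.0125) was not called with the replicate number as a block or with the mean of both probe sets (0.14). On the other probe set the groups overlapped, at 0.05 ± 0.06.

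KEAP1, the sensor that keeps NRF2 protein low, had values of 9.34, 9.31, 9.25 and 9.26 with estradiol and 9.29, 9.22, 9.34 and 9.33 with vehicle. The groups overlapped, and the difference was 0.00 ± 0.05 (SE, limma adjusted p = 0.978). The array measures RNA, so the amounts of NRF2 and KEAP1 protein are not known from it.

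**Figure D2:**
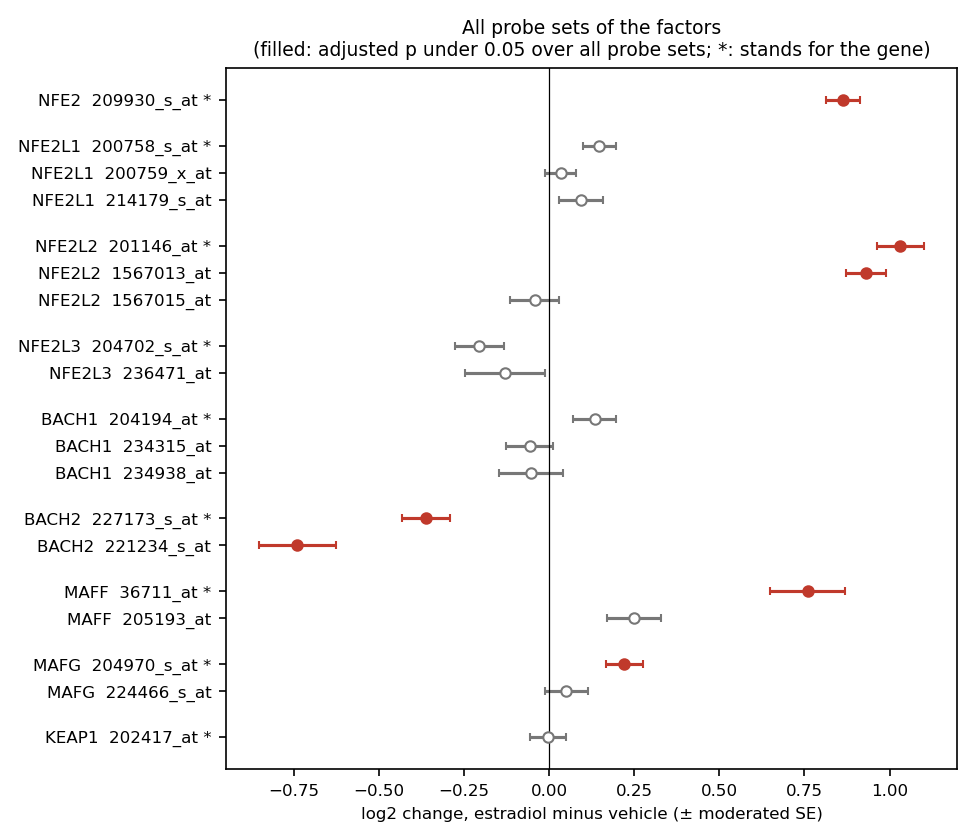
Log2 change (estradiol minus vehicle) of all 19 probe sets, with the moderated SE as bars; filled points were called over all probe sets and a star marks the probe set that stands for its gene. In NFE2L2 2 of 3 probe sets were called higher at 1.03 and 0.93, both BACH2 probe sets were called lower at −0.36 and −0.74, and MAFF and MAFG had 1 called and 1 uncalled probe set each.

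With every probe set tested on its own 7 of the 19 were called, 5 higher and 2 lower. That is 36.8%, against 10.4% of all 54613 probe sets, with 5.32% higher and 5.06% lower. The calls were those of NFE2, NFE2L2 (2), MAFF, MAFG and BACH2 (2). No member had probe sets called in opposite directions. NFE2L1 was not called in this wider fit (adjusted p = 0.102). Of the 19 member probe sets 16 lay above the median level. In the fit of probe sets above that level alone 9 of the 16 were called, and the share of all probe sets there was not counted. In 7 of the 9 genes no array of one group reached into the other, NFE2L3 among them, which was so for 24.1% of all genes. That share was not matched for level.

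Genes of proteins that destroy or process these factors were called about as often as all genes when level was not matched. Calls were more frequent above the median level, at 4276 of 9887 genes in the fit of those alone. These lists were not counted in that fit. In the list of KEAP1 and NRF2 turnover 10 of 11 genes were measured, with 1 rise, 1 fall and a median log2 change of 0.05. That is 20% called, near the 17.9% of all genes. SQSTM1, the autophagy receptor that can trap KEAP1, rose by 0.22 ± 0.04 (SE, limma adjusted p = 0.00358), from 8.93 ± 0.02 to 9.15 ± 0.03 (SD, n = 4). That call rested on 1 of its 5 probe sets and was lost with their mean (0.13, adjusted p = 0.197). PGAM5, a mitochondrial phosphatase that binds KEAP1, fell by 0.21 ± 0.06 on the log2 scale, a call lost in 10 of 18 alternatives. CUL3, the scaffold of the ligase that KEAP1 serves, differed by 0.10 ± 0.05 without passing.

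Of 5 measured genes that process NFE2L1 or degrade BACH1 or NFE2, 1 was called, again 20%. VCP, the ATPase that pulls NFE2L1 out of the endoplasmic reticulum, rose by 0.15 ± 0.04 (SE, limma adjusted p = 0.0270), and lost its call in 12 of 18 alternatives. ITCH, a ubiquitin ligase reported to act on NFE2, differed by 0.20 ± 0.07 without passing, but was called higher in 6 of 18 alternatives. NGLY1, which removes glycans from NFE2L1, differed by −0.03 ± 0.04, and FBXO22 and FBXL17, ligase subunits reported for BACH1, by −0.08 ± 0.05 and 0.10 ± 0.12. The large MAF factors, which carry the activation domain that small MAFs lack, were measured by MAF (0.09 ± 0.15) and NRL (−0.15 ± 0.09), and neither was called.

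Genes with antioxidant response elements are targets of NRF2 that BACH1 can repress. Of 23 measured genes 9 rose, 3 fell and 11 were not called. The called share was 52.2% and that of all genes 17.9%, a difference that was not tested. In the fit of genes above the median level 4276 of 9887 genes were called, and this list was not counted in that fit. The median log2 change of the list was 0.10. AKR1C1, an aldo-keto reductase, was 2.42-fold higher, from 9.42 ± 0.04 to 10.70 ± 0.02 (SD, n = 4; 1.28 ± 0.04 SE, limma adjusted p = 1.69e-07). Its near-identical relatives can share this signal, 3 of its 5 probe sets were called, and the mean of all gave 0.61. PGD, an enzyme of the pentose phosphate pathway that makes NADPH, read 12.30 on each estradiol array and 11.59 to 11.71 with vehicle, a rise of 0.66 ± 0.04. It rested on 1 of 3 probe sets, and the mean of all gave 0.15 (adjusted p = 0.0969).

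The malic enzyme ME1, another source of NADPH, rose by 0.47 ± 0.05 and was called on 2 of 3 probe sets. GCLM, the regulatory subunit of the enzyme that limits glutathione synthesis, rose by 0.41 ± 0.06 and was called on 3 of 3. Among genes named after their values had been seen, glutathione reductase, GSR, rose by 0.39 ± 0.04, while the sulfiredoxin SRXN1 fell by 0.41 on the log2 scale (SE 0.04). The classical NRF2 and BACH1 targets NQO1 and HMOX1 differed by 0.03 ± 0.04 and −0.14 ± 0.10, and neither passed. HMOX1 stood at 4.33 to 4.80, below the array medians, so it was not shown to be above background. NFE2L2 RNA was higher on all 4 estradiol arrays, and its part in these changes was not tested.

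Proteasome genes, which NFE2L1 activates when the proteasome is blocked, did not pass. Limma called 0 of 29, against 17.9% of all genes, with 3 at an unadjusted p under 0.05. The changes ran from −0.06 to 0.12 with a median of 0.02. PSMC6, an ATPase of the regulatory particle, had the smallest p, at 0.12 ± 0.05 (adjusted p = 0.136, from 0.0107 to 0.290 over its alternatives).

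Genes reported to need NF-E2 in megakaryocytes and red cells split. Of 8 measured genes 2 rose and 3 fell, with 8.29% of all genes called higher and 9.6% lower, and the median log2 change was −0.12. TUBB1, the tubulin of platelet rims, fell from 6.36 ± 0.16 to 5.34 ± 0.13 (SD, n = 4), a change of −1.02 ± 0.09 (SE, limma adjusted p = 6.94e-05). TUBB1 was called on 1 of 2 probe sets, and the other changed by −0.32. The called probe set read 5.15 to 5.44 with estradiol, not far above the array medians. RAB27B, a GTPase of granule release, rose from 6.41 ± 0.14 to 7.29 ± 0.07, by 0.87 ± 0.07, and was called on 2 of 3 probe sets. LIMS1, an adaptor of integrin adhesion, rose by 0.86 ± 0.16 on 1 of 3 probe sets. That probe set read 3.50 to 4.10 with vehicle and 4.42 to 4.92 with estradiol. All lay below the array medians of 4.97 to 5.08, so neither group was shown to be above background. HBE1, the embryonic beta-like globin, fell by 0.17 on the log2 scale, a call lost with the replicate block, median centring and the mean of its 2 probe sets (−0.078). With the mean of all probe sets TUBB1, RAB27B and LIMS1 changed by −0.67, 0.46 and 0.46. NFE2 rose in the same arrays, and its part in these changes was not tested.

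**Figure D3:**
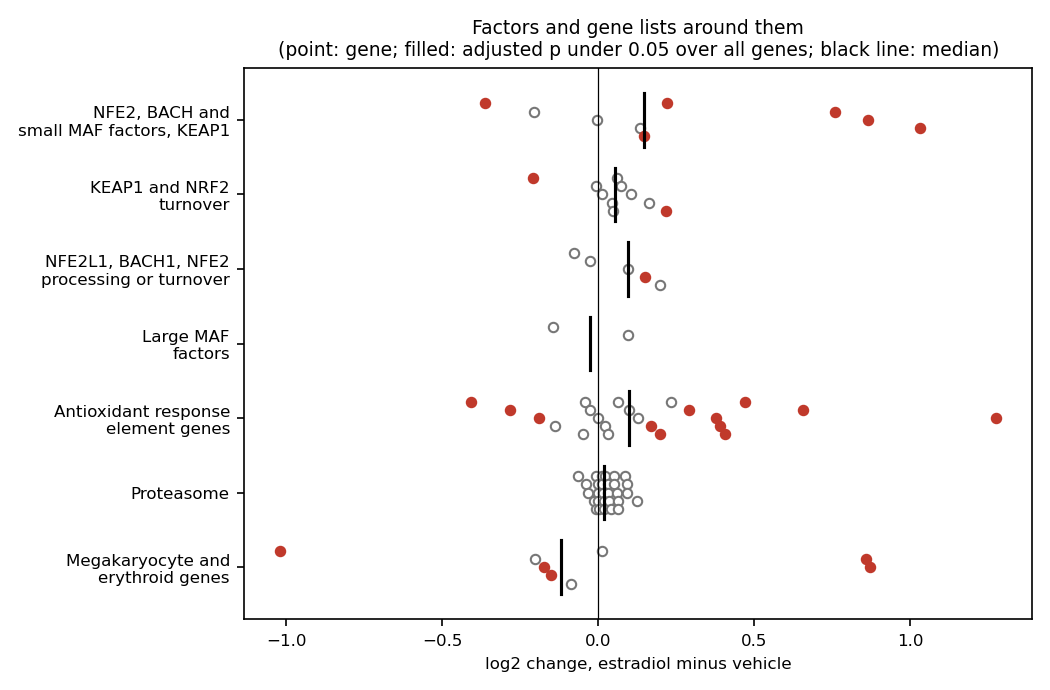
Log2 change (estradiol minus vehicle) of each gene in the factor family and in 6 lists around it; filled points were called over all genes and black lines are medians. The proteasome genes lie between −0.06 and 0.12 with none called, while the antioxidant genes spread from −0.41 to 1.28 and the megakaryocyte and erythroid genes from −1.02 to 0.87.

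The genes nearest to NFE2 in pattern over the 8 arrays, by the root mean square difference of log2 values centred on the mean of each gene, were SMIM13 (0.0292), YPEL5 (0.0299), MGAT5 (0.0344), SMAD3 (0.0378) and MAP1LC3B (0.0401). Their changes ran from 0.82 to 0.90, next to 0.86 for NFE2. Nearest to NFE2L2 were NCOA4 (0.0415), CPXM1 (0.0464), RAB8B (0.0539), PYCARD (0.0542) and NNMT (0.0572), with changes of 0.94 to 1.06. All 10 were called higher, though with their probe sets averaged MGAT5 and NNMT changed by 0.42 and 0.61. The measure mostly ranks genes by the size of the change, since the 2 groups make up most of the pattern.

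**Figure D4:**
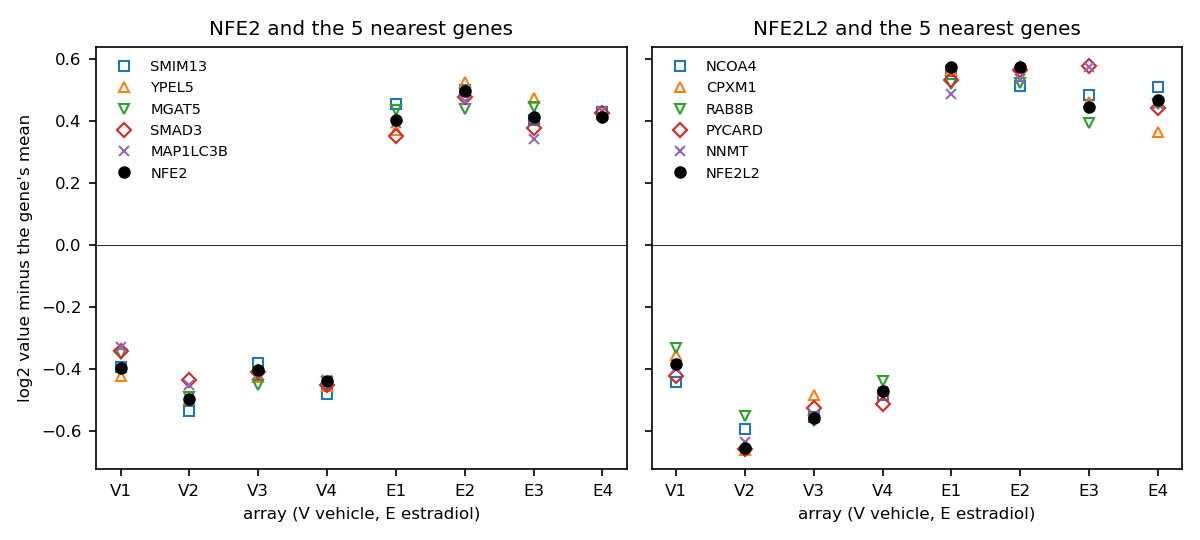
Log2 value minus the mean of the gene on vehicle arrays V1 to V4 and estradiol arrays E1 to E4, for NFE2 (left) and NFE2L2 (right, black points) with the 5 nearest genes of each. The vehicle arrays of NFE2L2 spread by 0.27 and those of NFE2 by 0.10.

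Markers were read in the labelled line, each on its own probe set only. Levels of different probe sets cannot be set against each other, so these values do not test the identity of the line. Of 8 erythroid markers 7 were measured, and their mean was 11.26 to 11.32 over the vehicle arrays and 11.03 to 11.06 with estradiol. Of these 3 were called lower, GATA1, KLF1 and HBE1, against 9.6% of all genes. The other 4 were not called, 0 were called higher, and the log2 changes of the list ran from −0.89 to 0.08. EPOR, among the uncalled, was represented by its brightest probe set (−0.145 ± 0.068). Over all probe sets 3 of its 5 were called lower, and the changes of the 5 ran from −0.46 to −0.11. Of 5 lymphocyte markers 4 were measured, with means of 5.77 to 5.94 with vehicle and 5.72 to 5.90 with estradiol. Limma called 0 of the 4, with 0 at an unadjusted p under 0.05. CD3D, a chain of the T cell receptor complex, read 7.85 to 8.16 over all 8 arrays, above the upper quartiles of the arrays (6.90 to 7.03). That probe set was not dim, but without detection calls this does not show whether CD3D RNA was present. The part of the falls of GATA1 and KLF1 in the values of NFE2 and its reported targets was not tested. In bulk RNA, fewer cells with a transcript and less of it per cell cannot be told apart.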

How the data were processed

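RNA of 8 K562 cultures was put on 1-colour arrays. The deposited values are on a log2 scale. The submitters' processing notes name RMA without a version. RMA brings the arrays towards a common distribution, which hides a shift common to all genes and shrinks changes of dim probe sets. The deposited arrays still differed, with medians of 4.97 to 5.08 and upper quartiles of 6.90 to 7.03. Chip definition and software: not given in the sources used here. No detection calls were used. Symbols came from the platform annotation: of 54675 probe sets 41097 had 1 symbol, 1801 several and 11777 none listed. A RefSeq table held the gene identifier of 41043 of them and changed 0 symbols. The 62 controls of the array maker were left out.

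Each gene was represented by its brightest probe set (mean of the 8 arrays). Estradiol was compared with vehicle with limma 3.58.1 (lmFit, eBayes, two-sided, no block, R 4.3.3) over 19775 genes and, separately, over 54613 probe sets, each Benjamini-Hochberg adjusted and called under 0.05. The fit was tested on simulated data. Samples were grouped by title. The titles call them biological replicates, and nothing more is said of the cultures, so a p-value measures only how these samples spread. The number of arrays limits the precision.

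Members, lists and tests were chosen with earlier results of these data known. Named were all members, up to 4 called genes of each of the 6 pathway lists with the largest change (or that with the smallest p), all genes of pathway lists under 7, and the 5 genes nearest to NFE2 and NFE2L2. CUL3, GSR, SRXN1, NQO1, HMOX1 and, from the marker lists, GATA1, KLF1, CD3D and EPOR were named outside that rule, after their values were seen. EPOR was not followed through the alternatives described below or the check for outlying arrays. Other genes of the lists were not analysed here. Promoter windows were cut to the 250 bases before the start site. Alternatives were the replicate block, 3 scalings, 2 filters by level, averaging of probe sets, a robust fit with variance trend, array weights, a stricter threshold and each array left out. Figures were drawn with matplotlib 3.10.9.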

Additional observations from a re-analysis of the deposited data

Results flagged for a closer look

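In 8 of 110 groups of 4 arrays 1 array stood far from the other 3 (its gap to the nearest, as a share of the range of the group, was over Dixon's critical value), where chance gives about 1 in 20, or 5.5. Among the members these were NFE2 in estradiol replicate 2, at 10.94 against 10.85 to 10.86 on the other 3 arrays, the dimmer called NFE2L2 probe set in vehicle replicate 2, at 6.54 against 6.63 to 6.64, and MAFF in vehicle replicate 1, at 7.50 against 6.96 to 7.04. MAFF is the member for which the array matters most, with a change of 0.88 without it. Among the other named genes, ME1 was 8.72 in vehicle replicate 1 against 8.57 to 8.58, and NRL was 5.67 in vehicle replicate 2 against 5.33 to 5.37. VCP and MAF were high in estradiol replicate 1, at 10.41 against 10.33 to 10.34 and at 4.15 against 3.79 to 3.82. LIMS1 was low in estradiol replicate 3, at 4.42 against 4.86 to 4.92.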

How the results depend on the processing

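NFE2, NFE2L2, BACH2 and MAFF kept their direction and their call in all 18 alternatives, and BACH1 and KEAP1 stayed uncalled. KEAP1 changed sign in 5 of the 18, up to 0.023. NFE2L1 was not called with the replicate block (0.15), median centring (0.17), scaling to the 75th percentile (0.14), quantile normalization again (0.12), the mean of its probe sets (0.092) or an adjusted p under 0.01 (0.15), and without 1 array it ran from 0.13 to 0.16, uncalled each time. MAFG was not called with the block (0.22), the mean of its probe sets (0.14) or the stricter threshold (0.22). NFE2L3 became called with scaling to the 75th percentile (−0.22), among genes above the median level (−0.20) and without vehicle replicate 2, and ran from −0.24 to −0.16 without 1 array. At an adjusted p under 0.01 the count of genes called fell from 3538 to 2179. Correlations of deviations from the group means were −0.05, −0.21, 0.09 and 0.11 for same-numbered arrays. Those of arrays with different numbers ran from −0.15 to 0.22. With 4 arrays per group this cannot decide whether the cultures were paired by number. The block gave 2598 genes and 4 members called. No called change turned its direction. Of 36 other named genes 25 kept call and sign in every alternative run. The uncalled NGLY1 and MAF changed sign with the mean of their probe sets (0.071 and −0.042), as did FBXL17 without vehicle replicate 2 (−0.0065). The call changed in the other 8, among them CUL3, which also changed sign with the mean of its probe sets (−0.022), and the causes were not tested. Background signal was not measured, which limits what can be said of dim probe sets.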
